A study of Mus musculus with 3 samples.

Results

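The cytosolic ribosomal protein (RP) genes of mouse bone marrow were described across cell classes and across 2 genotypes. Members were the genes whose symbol is Rpl or Rps followed by a number, with at most 1 letter and a final l or x, together with Rplp0, Rplp1, Rplp2 and Rpsa; pseudogenes and the Rps6k kinases were left out. The rule matched 81 of the 32285 genes listed in the files, 50 of the large and 31 of the small subunit. Of these, 80 had at least 1 UMI (unique molecular identifier, 1 per captured transcript) in the cells kept and 78 had at least 1000. No measured value entered the rule. Rps3a1, Rack1 and Fau, which also encode ribosomal proteins, did not match it.

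The data are droplet 3' single-cell RNA sequencing of bone marrow from 2 libraries of the genotype Ep300-Znf384-V5-HA (fusion replicates 1 and 2) and from 1 wild-type library, all from males aged 6 weeks. Ep300-Znf384 joins the histone acetyltransferase gene Ep300 to the zinc finger gene Znf384, a fusion found in human acute leukaemia; V5 and HA are epitope tags. Femur and tibia marrow was depleted of red cells by lysis, and equal numbers of sorted live cells and of sorted live lineage-negative cells were pooled for each library, so the shares of cell types in a library reflect that pooling. The labels do not say whether the fusion libraries came from separate animals or which promoter drives the fusion, so the spread between them may be technical, and a single wild-type library carries the comparison.

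A cytosolic ribosome is built from a small subunit (Rps proteins), which decodes the mRNA, and a large subunit (Rpl proteins), which forms the peptide bond. RP mRNAs are among the most abundant in growing cells, and most begin with a run of pyrimidines at their start (the TOP motif), through which the mTORC1 pathway and the RNA-binding protein Larp1 set their translation and stability. In bone marrow, RP genes are known for Diamond-Blackfan anaemia, a human failure of red cell production caused by loss of 1 copy of single RP genes, and ribosome production is known to decline as neutrophils mature.

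The files held 9057 and 8122 barcodes in the fusion libraries and 9354 in wild type, and 7313 and 6895 cells in the fusion libraries and 7431 cells in wild type were retained. The median cell had 7360 and 10008 UMIs in fusion and 7430 in wild type. Between 19 and 23 barcodes were shared by any pair of libraries. The cells, clustered without the RP genes, formed 28 clusters, which marker lists joined into 13 named classes and 4 clusters left under their numbers, 17 groups in all. A name is given by markers and means no more than likeness to that type. The summed marker list of a class was highest in that class for 11 of 13 classes, the exceptions being erythroid progenitors and pro-B cells, whose lists were higher in erythroblasts and in pre-B to mature B cells. The clusters left unnamed were led by Gm15915, Mc5r, Muc13 and Apoe (cluster 3), Gria3, BC035044 and Cd34 (cluster 5), Bex6, Bcl2 and Gria3 (cluster 10) and H1fx, Muc13 and Vamp5 (cluster 19). Fusion replicate 1 stood apart: the 48 members with a coding length of at most 480 bases made up 48.5% to 54.7% of its RP UMIs over the 17 groups, against 58.9% to 65.0% in fusion replicate 2 and 60.8% to 66.2% in wild type. Values between genotypes are therefore given for each fusion library on its own.

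RP transcripts were abundant in marrow and very unequally spread over its cells. Over all kept cells, RP genes held 24.1% and 27.2% of UMIs in the fusion libraries, against 24.9% in wild type. Across classes the mean of the 3 libraries ran from 31.6% ± 1.77 (SD, n = 3) in cluster 3 to 4.19% ± 0.42 (SD, n = 3) in mature neutrophils. The highest class exceeded the lowest by 6.38 and 8.67 times in the fusion libraries and by 7.81 times in wild type. Since the classes are clusters of the same cells, their order is a description and was not tested.

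Progenitor classes, the numbered clusters and erythroblasts filled the top of the order. Cluster 3 had 29.6% and 32.96% in the fusion libraries and 32.2% in wild type. Erythroid progenitors had 28.2% and 31.9% in the fusion libraries and 31.0% in wild type. The class of stem, multipotent and lymphoid progenitors had 27.8% and 31.3% in the fusion libraries and 29.98% in wild type. Together with clusters 10, 19 and 5 and the erythroblasts, whose means ran from 29.9% ± 1.65 to 28.4% ± 1.54 (SD, n = 3 each), these groups had ranges that overlapped with their neighbours in the order. The spread was largely shared by the classes of a library: within each of the 3 libraries cluster 3 ranked 1 and erythroid progenitors ranked 2. Granulocyte-monocyte progenitors followed at 27.2% ± 2.21 and megakaryocytes at 25.4% ± 1.61 (SD, n = 3 each).

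Lymphoid and mature myeloid cells lay lower, without a gap. T, NK and innate lymphoid cells averaged 24.6% ± 2.67, pro-B cells 23.0% ± 1.39, basophils and mast cells 21.8% ± 2.32, monocytes 21.1% ± 1.74, pre-B to mature B cells 19.5% ± 0.82 and plasmacytoid dendritic cells 18.97% ± 0.97 (SD, n = 3 each). Each of these but the last overlapped the range of the next class in the order. Within the B lineage, pre-B to mature B cells were below pro-B cells in every library, with 18.9% and 20.4% against 21.4% and 24.1% in the fusion libraries and 19.3% against 23.4% in wild type.

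Neutrophils stood apart from every other class. Immature neutrophils, which express the granule genes Camp, Ltf and Ngp, had 4.97% and 4.98% in the fusion libraries and 4.99% in wild type. Mature neutrophils had 4.64% and 3.801% in the fusion libraries and 4.13% in wild type. The lowest other class exceeded the highest neutrophil class by 3.60 and 3.98 times in the fusion libraries and by 3.84 times in wild type. These were the only places in the order of classes where neighbouring ranges did not overlap: between plasmacytoid dendritic cells and immature neutrophils, and between immature and mature neutrophils. With mitochondrial, haemoglobin and 6 abundant neutrophil genes (S100a8, S100a9, Camp, Ngp, Lcn2 and Ltf) taken out of the total, immature neutrophils had 7.75% and 8.98% in fusion and 9.25% in wild type, and mature neutrophils 5.86% and 5.44% in fusion and 6.28% in wild type, still below each other class.

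**Figure D1:**
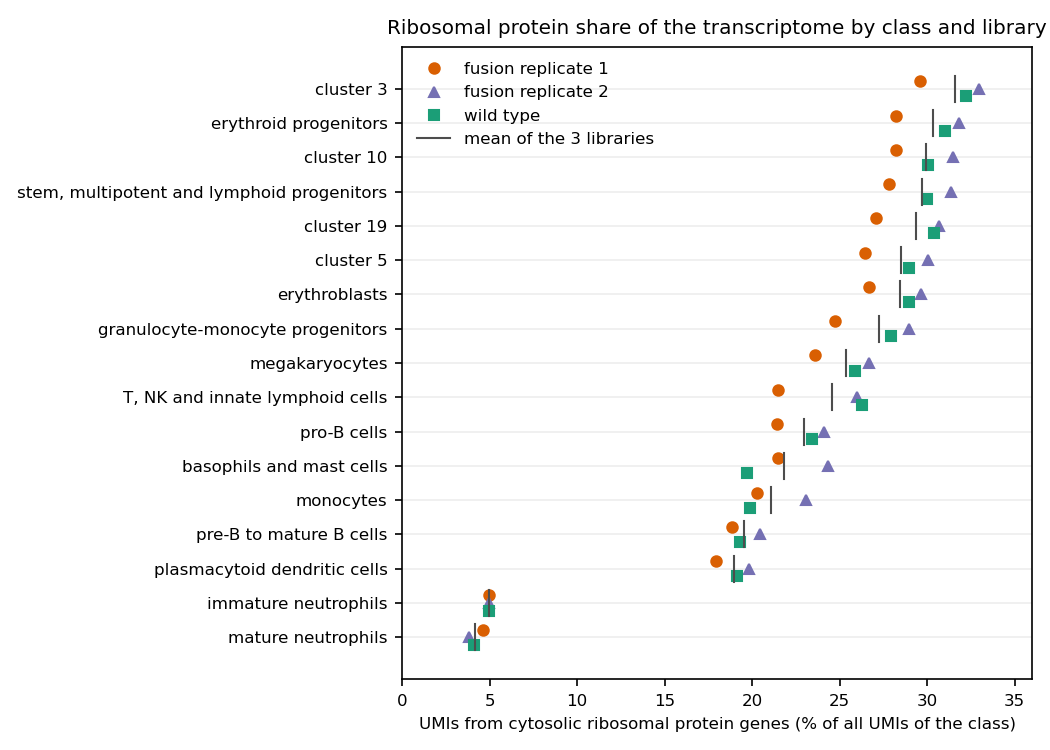
Share of all UMIs from the 81 RP genes (percent, x axis) in each of 17 cell groups (rows, ordered by the mean), with 1 point per library (2 fusion, 1 wild type) and a bar at the mean of the 3 libraries. Progenitor classes and the numbered clusters lie at the top, and both neutrophil classes lie at or below 5% in every library.

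The share also differed between the clusters of the granulocytic classes. Cluster 16 of the granulocyte-monocyte progenitors had 28.5% and 32.5% in the fusion libraries and 30.8% in wild type, with a median of 5152 and 6568 RP UMIs per cell in fusion and 7042 in wild type. Cluster 18 of the same class had 19.9% and 24.1% in fusion and 23.7% in wild type. Among immature neutrophils, cluster 15 had 6.70% and 7.66% in fusion and 5.70% in wild type, and cluster 2 had 4.67% and 4.25% in fusion and 4.30% in wild type. Cluster 8, immature neutrophils led by Mmp8 and Ltf and holding 573 and 461 fusion cells and no wild-type cell, had 3.37% and 2.93%. Mature neutrophils of the fusion libraries fell mostly in clusters 1, 6 and 21 and those of wild type in clusters 9 and 11, so this class compares different clusters between genotypes. The largest of them, cluster 1 in fusion and cluster 9 in wild type, had 4.97% and 4.19% in fusion and 5.33% in wild type, with a median of 98 and 102 RP UMIs per cell in fusion and 124 in wild type. Cluster 21, which held 244 and 142 fusion cells and no wild-type cell, had 7.35% and 6.61%, above the other mature neutrophil clusters.

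Other genes of the translation machinery followed a similar order over the 17 groups, given here as a description over groups that share libraries and cells. Translation factors and related genes with TOP mRNAs, such as Eef1a1 and Eef2, summed to between 0.68% of UMIs in immature neutrophils and 3.39% in cluster 3 (Spearman's rho of 0.98 with the RP share, n = 17 groups). Ribosome biogenesis genes, which make and assemble rRNA (Ncl, Npm1, Fbl and others), ran from 0.084% in immature neutrophils to 1.32% in erythroid progenitors (rho of 0.87, n = 17). Mitochondrial ribosomal protein genes, whose products work in a separate ribosome, spanned 0.23% in mature neutrophils to 1.02% in erythroid progenitors (rho of 0.71, n = 17). Regulators of RP synthesis, among them Myc, Larp1 and Mtor, varied less, from 0.059% in immature neutrophils to 0.12% in cluster 3 (rho of 0.77, n = 17). The list of p53 targets did not share the order (rho of -0.33, n = 17).

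The make-up of the RP total differed between classes, by little for some members and by a lot for others. Each member was expressed as a percent of all RP UMIs of a class, which takes the summed share out of the comparison. Over the 78 members with at least 1000 UMIs, the highest class mean exceeded the lowest by a median of 1.54 times, and by 2 times or more for 12 members. The highest and lowest class of a member were picked by the mean of the same 3 libraries. That choice favours the same order within each library, so the order, seen in each library for all 78 members, is no separate support. For 16 of them the ranges of these classes still overlapped between libraries. Mature neutrophils were the class with the most extremes, highest for 12 members and lowest for 24.

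The steadiest members were 4 large subunit genes. Rpl11, which with Rpl5 carries the 5S rRNA and binds Mdm2, ran from 1.08% of RP UMIs in cluster 3 to 1.25% in granulocyte-monocyte progenitors, a ratio of 1.15. Rpl18, Rpl23 and Rpl24 had ratios of 1.18, 1.19 and 1.21. To set the start of a steady gene beside those of 4 genes with large ratios, described next, the sequence from 50 bases before to 20 bases past the transcription start in RefSeq (GRCm38.p6) is given 5' to 3' on the gene's strand. Capitals mark the longest run of C and T that comes within 10 bases of the start.
Rpl31 (chr1:39367801-39367870, plus strand): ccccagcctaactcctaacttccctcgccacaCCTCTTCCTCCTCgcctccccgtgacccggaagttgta
Rps9 (chr7:3703991-3704060, plus strand): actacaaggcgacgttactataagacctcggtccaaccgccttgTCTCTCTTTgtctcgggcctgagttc
Rps27 (chr3:90213629-90213698, minus strand): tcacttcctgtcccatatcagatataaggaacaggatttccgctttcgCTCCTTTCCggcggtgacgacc
Rpl14 (chr9:120571467-120571536, plus strand): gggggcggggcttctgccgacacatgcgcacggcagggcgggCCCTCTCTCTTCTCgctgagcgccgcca
Rpl11 (chr4:136053374-136053443, minus strand): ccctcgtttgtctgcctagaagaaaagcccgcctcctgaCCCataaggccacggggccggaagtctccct
A run of at least 6 such letters was found in 34 of the 61 members with a RefSeq promoter entry (55.7%) and in 29.1% of 27025 promoters in all. The motif CGGAAG, searched on both strands of the 300 bases from 250 before to 50 after the start, was in 42 of 61 members (68.9%) and in 17.2% of all promoters; TATAAA was in 5 of 61 (8.20%) and in 14.2% of all, and AAGATGG in 8 of 61 (13.1%) and in 6.48% of all. Rpl31, Rps9, Rps27 and Rpl14 had runs of 13, 9, 9 and 14 letters, and Rpl11 a run of 3. Other members with large ratios had shorter runs, of 6 letters in Rps2, 5 in Rpl36al and 3 in Rpl10. The marked run need not cover the start: in Rpl31 and Rpl11 it began at -18 and -11 bases and ended before the start. Whether the marked runs belong to the TOP motif was not tested. The genes shown were chosen after their values were seen.

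Rps9, Rps27a and Rps27, all of the small subunit, took their largest part of the RP total in mature neutrophils. Rps9 (chromosome 7, 3703993 to 3706897), a protein of the small subunit body, held 4.68% and 4.12% of RP UMIs in mature neutrophils of the fusion libraries and 4.55% in those of wild type. In megakaryocytes, its lowest class, it held 1.77% and 1.26% in fusion and 1.23% in wild type. Rps27a, which is made as a fusion of ubiquitin with a ribosomal protein (chromosome 11, 29545846 to 29548109), held 4.15% and 3.96% in mature neutrophils of fusion and 3.92% in those of wild type, against 1.60% and 1.44% in pre-B to mature B cells of fusion and 1.37% in those of wild type. For both genes immature neutrophils came next to mature neutrophils, with means of 3.18% for Rps9 and 2.97% for Rps27a, and no class outside the neutrophils had a mean above 2.32% and 2.02%. Rps27, a zinc finger protein of the small subunit (chromosome 3, 90212522 to 90213651), held 0.96% and 1.95% in mature neutrophils of fusion and 2.06% in those of wild type, and 0.32% and 0.67% in erythroid progenitors of fusion and 0.80% in those of wild type. In both classes fusion replicate 1 lay well below the other libraries. The mean of Rps27 was also high in pre-B to mature B cells (1.51%), plasmacytoid dendritic cells (1.38%) and T, NK and innate lymphoid cells (1.23%). Immature neutrophils had 1.005%. Rps27a overlaps Clhc1 on the other strand.

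Rps2, Rpl14, Rplp1 and Rps18 took their largest part of the RP total in an erythroid class, though for most of them other groups came close. Rps2, a small subunit protein at the mRNA entry site (chromosome 17, 24718116 to 24721929), held 2.76% and 2.43% of RP UMIs in erythroblasts of fusion and 2.04% in those of wild type, against 0.96% and 0.87% in plasmacytoid dendritic cells of fusion and 0.73% in those of wild type. Rpl14 (chromosome 9, 120571444 to 120574654) held 1.54% and 1.31% in erythroid progenitors of fusion and 1.25% in those of wild type, and 0.66% and 0.54% in immature neutrophils of fusion and 0.55% in those of wild type. Rplp1, an acidic protein of the ribosomal stalk, averaged 2.55% ± 0.17 in erythroblasts and 1.13% ± 0.05 in immature neutrophils (SD, n = 3 each). Rps18 averaged 1.56% ± 0.08 in erythroblasts and 0.77% ± 0.11 in mature neutrophils (SD, n = 3 each).

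Plasmacytoid dendritic cells, the smallest class with 29 and 46 fusion cells and 96 wild-type cells, were highest for 8 members. Rpl31 (chromosome 1, 39367842 to 39371911) held 0.88% and 1.36% of RP UMIs there in fusion and 1.42% in wild type, which rested on 252 and 756 UMIs in fusion and 1492 in wild type. In T, NK and innate lymphoid cells it held 0.30% and 0.37% in fusion and 0.43% in wild type. No other class had a mean of Rpl31 above 0.59%. Rpl10 (chromosome X, 74270812 to 74273135), which joins the large subunit late and allows it to pair with the small one, held 2.43% and 1.37% in plasmacytoid dendritic cells of fusion and 1.33% in those of wild type, against 0.95% and 0.56% in mature neutrophils of fusion and 0.59% in those of wild type. With each cell assigned to its best marker list in place of clusters, the ratio of the highest to the lowest class for Rpl31 was 1.69 in place of 3.35. Rpl31 has 24 pseudogenes named after it in the annotation (GENCODE M21) that are not among the genes counted, and it overlaps Tbc1d8 on the other strand; no source used here says whether strand entered the counting, so its level is uncertain.

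**Figure D2:**
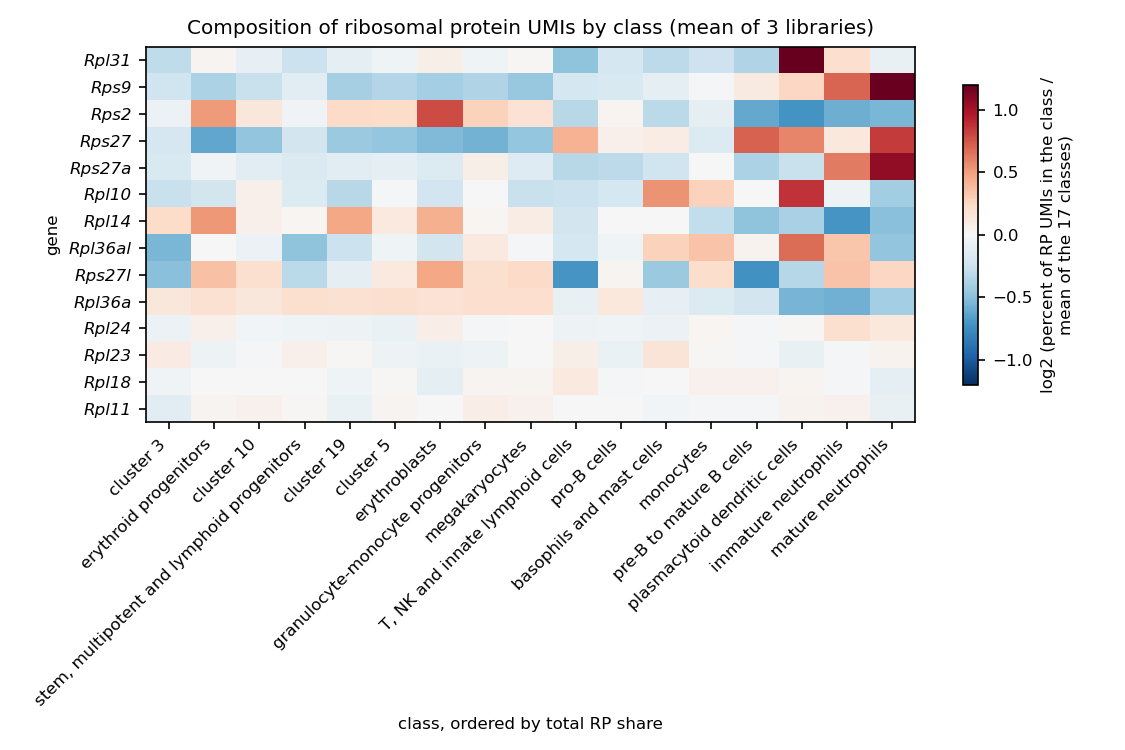
Heat map of 14 RP genes (rows) in 17 cell groups (columns, ordered by total RP share), coloured by the log2 of the gene's percent of RP UMIs in the group over its mean of the 17 groups (mean of 2 fusion libraries and 1 wild-type library). Rps9 and Rps27a are highest in the neutrophil columns, Rps2 in erythroblasts and Rpl31 in plasmacytoid dendritic cells, while the bottom rows, Rpl24, Rpl23, Rpl18 and Rpl11, are nearly flat. Colours are capped at the ends of the scale.

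Groups of members with a shared place in the ribosome were also summed. Large subunit genes held 53.01% of RP UMIs in immature neutrophils and 56.2% in erythroid progenitors, the extremes of the 17 groups. The stalk genes Rplp0, Rplp1 and Rplp2, whose products recruit translation factors, held from 3.70% in immature neutrophils to 5.76% in erythroblasts. Rpl5 and Rpl11 together held from 1.85% in mature neutrophils to 2.29% in megakaryocytes. The 19 members known from Diamond-Blackfan anaemia held from 21.3% in erythroblasts to 24.6% in pre-B to mature B cells.

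The genome holds second copies (paralogs) of a few RP genes, and those expressed in marrow shifted between cell types relative to their partners. Rps27l (chromosome 9, 66946086 to 66949516) is the paralog of Rps27 and is known in human cells as a target of p53. Its coding sequence and that of Rps27 have 252 bases each, of which 60 differ (76.2% identical). The GENCODE M21 coding sequences, which leave out the stop codon, are printed 5' to 3' with every base that differs between them in capitals, to show how far apart the copies are.
Rps27l: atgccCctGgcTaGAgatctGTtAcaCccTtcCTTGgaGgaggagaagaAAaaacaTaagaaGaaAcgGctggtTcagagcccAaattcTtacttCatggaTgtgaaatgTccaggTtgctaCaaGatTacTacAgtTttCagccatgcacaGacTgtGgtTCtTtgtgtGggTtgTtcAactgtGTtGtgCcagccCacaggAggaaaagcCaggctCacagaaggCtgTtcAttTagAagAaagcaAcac
Rps27: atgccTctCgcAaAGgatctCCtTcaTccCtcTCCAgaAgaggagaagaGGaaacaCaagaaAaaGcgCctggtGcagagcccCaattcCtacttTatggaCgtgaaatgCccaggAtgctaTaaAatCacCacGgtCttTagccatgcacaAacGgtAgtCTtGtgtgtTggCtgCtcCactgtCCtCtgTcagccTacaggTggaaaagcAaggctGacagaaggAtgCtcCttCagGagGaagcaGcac
The longest stretch shared by the whole transcripts is 11 bases. The coding sequences of Rpl36al and Rpl36a differ at 39 of 318 bases (87.7% identical), and their transcripts share at most 24 bases in a row.

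Rps27l was highest in red cell precursors. In erythroblasts it had 582 and 734 CPM (UMI counts scaled to a common total per class and library) in fusion and 709 in wild type, and 577 and 693 CPM in erythroid progenitors of fusion and 722 in those of wild type. In pre-B to mature B cells it had 181 and 229 CPM in fusion and 198 in wild type, and in mature neutrophils 93.6 and 84.4 CPM in fusion and 76.3 in wild type. The UMI ratio of Rps27l to Rps27 was 0.621 and 0.352 in erythroblasts of fusion and 0.283 in those of wild type, against 0.108 and 0.067 in pre-B to mature B cells of fusion and 0.052 in those of wild type. The ratio was higher in fusion replicate 1 than in both other libraries in all 17 groups. The order of the classes was alike in the 3 libraries, with erythroid cells at the high end. Pre-B to mature B cells, T, NK and innate lymphoid cells and plasmacytoid dendritic cells were at the low end. Pro-B cells were not among the lowest: by class means they lay above mature neutrophils and above basophils and mast cells.

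Rpl36al had another pattern. Its ratio to Rpl36a was 2.25 and 1.58 in plasmacytoid dendritic cells of fusion and 1.46 in those of wild type, and 1.57 and 1.37 in immature neutrophils of fusion and 1.15 in those of wild type. In cluster 3 it was 0.550 and 0.435 in fusion and 0.390 in wild type, and in stem, multipotent and lymphoid progenitors 0.561 and 0.442 in fusion and 0.382 in wild type. Monocytes, at 1.19 and 0.918 in fusion and 1.01 in wild type, and basophils and mast cells, at 1.004 and 0.847 in fusion and 0.978 in wild type, lay between these ends. Rpl22l1, a paralog of Rpl22 that the rule does not match, ranged in its ratio to Rpl22 from a mean of 0.273 in pre-B to mature B cells to 0.532 in immature neutrophils.

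Paralogs known for expression in testis or muscle were nearly silent. Rpl10l, a testis-expressed copy of Rpl10, had 0 of 276611009 UMIs, which allows up to 0.0108 CPM (3 counts over all kept cells). Rpl39l, a testis-expressed copy of Rpl39, had 72 UMIs in all, of which 25 in fusion replicate 2 and 18 in wild type fell in erythroid progenitors and 0 in fusion replicate 1. Rpl3l, known from skeletal muscle and heart, had 284 UMIs, most of which lay in neutrophils: mature neutrophils had 24 and 32 in fusion and 86 in wild type. Rpl3l lies at 24727820 to 24736143 on chromosome 17, downstream of Rps2 on the same strand.

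**Figure D3:**
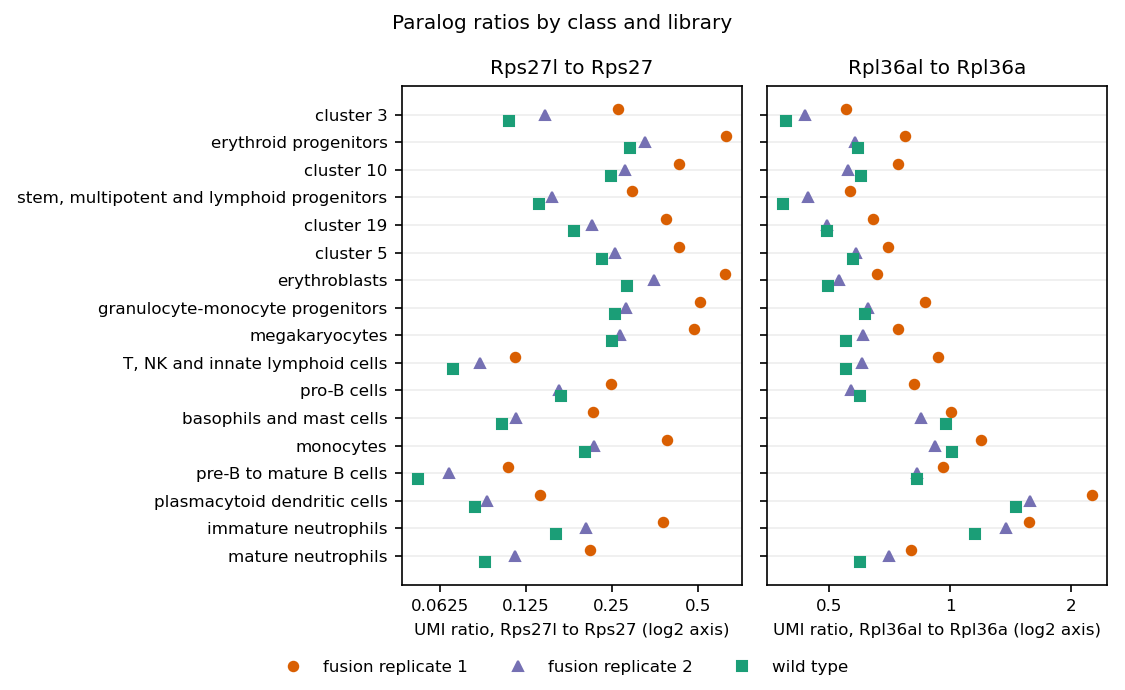
UMI ratio of Rps27l to Rps27 (left) and of Rpl36al to Rpl36a (right), on log2 axes, in 17 cell groups (rows) with 1 point per library (2 fusion, 1 wild type). The first ratio is highest in erythroid cells and lowest in pre-B to mature B cells, the second highest in plasmacytoid dendritic cells, and fusion replicate 1 lies to the right of the other libraries in every row.

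Whether the fusion altered the summed RP share was compared class by class, and the genotypes did not separate. In 13 of 17 groups the fusion libraries lay on either side of wild type. Fusion replicate 2 was above fusion replicate 1 in 16 of 17 groups, mature neutrophils being the exception, and wild type was above fusion replicate 1 in 14 of 17. The difference of the fusion mean from wild type was smaller than the SD of the fusion libraries in 15 of 17 groups. With 3 ways to label the libraries, an exact two-sided permutation test reaches p = 0.333 at the lowest. Fusion replicate 2 taken alone was above wild type in 14 of 17 groups and fusion replicate 1 alone in 3 of 17.

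The fusion libraries shared a side of wild type in 4 groups. Basophils and mast cells had 21.5% and 24.3% in fusion and 19.7% in wild type (exact permutation p = 0.667). Monocytes had 20.3% and 23.1% in fusion and 19.9% in wild type (exact permutation p = 0.667), a difference of 1.78 percentage points that was -0.11 with doublets kept and -1.17 with cells assigned by markers. T, NK and innate lymphoid cells had 21.5% and 26.0% in fusion and 26.3% in wild type (exact permutation p = 0.667). The immature neutrophils, all between 4.97% and 4.99%, had overlapping Clopper-Pearson 95% intervals (4.96% to 4.99% in each fusion library and 4.97% to 5.004% in wild type, for counting error only). This class joined clusters with different shares, among them cluster 8 with no wild-type cell, and the fusion mean minus wild type ran from -2.49 percentage points with coarser clusters to 1.28 with a stricter cell filter. The basophil class joined cluster 14, led by Ccl3 and Cd200r3, with 19.5% and 22.2% in fusion and 19.8% in wild type, and cluster 22, led by Cpa3 and Ms4a2, with 22.9% and 25.7% in fusion and 19.6% in wild type. Cluster 22 made up 77 of 178 and 119 of 249 cells of the class in fusion and 152 of 596 in wild type. The monocyte class joined clusters 13 and 26. Cluster 13, led by Fn1 and F13a1, had 20.5% and 23.9% in fusion and 19.96% in wild type. In cluster 26, led by Hpgd and Clec4a3, the fusion libraries lay on either side of wild type, with 19.3% and 18.9% against 19.2%. Cluster 26 made up 96 of 261 and 109 of 283 monocytes in fusion and 71 of 422 in wild type.

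In fusion replicate 1 short and long RP genes deviated from wild type in opposite directions. Library ratios of single members were taken as the median over 16 classes of the log2 ratio of CPM + 1. Of the 20 members with a coding length of at most 360 bases, all 20 were lower in fusion replicate 1 than in wild type, with a median of -0.92 on the log2 scale. The 27 members of over 360 and up to 480 bases had a median of -0.13, and the 10 of over 480 and up to 600 bases a median of 0.35, with 0 of 10 below 0. In fusion replicate 2 against wild type the same 3 groups had medians of -0.04, 0.08 and 0.10. Spearman's rho between coding length and the ratio over 78 members was 0.86 for fusion replicate 1 over wild type, 0.63 for fusion replicate 2 over wild type and 0.86 for fusion replicate 1 over fusion replicate 2, so the gap within the fusion genotype was as ordered by length as the gap to wild type.

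The shortest members carried the largest ratios. Rpl41 and Rps28, which encode very small ribosomal proteins, are shown by their GENCODE M21 coding sequences, with the start codon in capitals and without the stop codon, as the genes at the short end.
Rpl41: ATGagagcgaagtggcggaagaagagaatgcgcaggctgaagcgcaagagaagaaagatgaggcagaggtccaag
Rps28: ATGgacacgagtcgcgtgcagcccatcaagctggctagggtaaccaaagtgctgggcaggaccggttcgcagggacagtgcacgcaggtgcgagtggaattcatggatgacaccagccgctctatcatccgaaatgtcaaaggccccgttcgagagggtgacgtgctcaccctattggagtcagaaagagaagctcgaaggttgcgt
The log2 ratio of Rpl41 was -1.17 in fusion replicate 1 over wild type and -0.01 in fusion replicate 2 over wild type, and that of Rps28 was -1.58 and -0.15. Rps29 had -1.61 in fusion replicate 1 and -0.15 in fusion replicate 2, and Rpl38 had -1.58 in fusion replicate 1 and -0.21 in fusion replicate 2. Of the paralogs with 252 coding bases, Rps27 had -1.35 and -0.22, while Rps27l, whose annotated transcript has 499 bases in place of 345, had -0.33 and -0.03. Among longer members, Rpl6 (888 coding bases) went against the order, with -0.53 in fusion replicate 1 and -0.03 in fusion replicate 2.

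Genes outside the ribosome were also low in fusion replicate 1 where their transcripts were short. Among protein-coding genes that are no members and had a mean of at least 20 CPM, the 49 with an annotated transcript of at most 500 bases had a median log2 ratio of fusion replicate 1 over wild type of -0.77, and 46 of the 49 were below 0. The 53 genes of over 500 and up to 600 bases had a median of -0.26, the 178 of over 600 and up to 800 bases 0.21 and the 4219 of over 2000 bases 0.09. The 11 members with a transcript of at most 500 bases had a median of -1.10. Fusion replicate 2 over wild type gave -0.10 for the 49 short other genes and -0.08 for the 11 short members. By coding length, the 348 other genes of at most 360 bases had a median of 0.04 in fusion replicate 1 over wild type. Over the members rho with transcript length was 0.47, below that with coding length. Each gene was given a single annotated transcript, and some were long, with 5179 bases for Rps15a (390 coding) and 3706 for Rps20 (357 coding). The rho with transcript length depends on that choice. What sets the short transcripts of fusion replicate 1 apart was not tested.

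**Figure D4:**
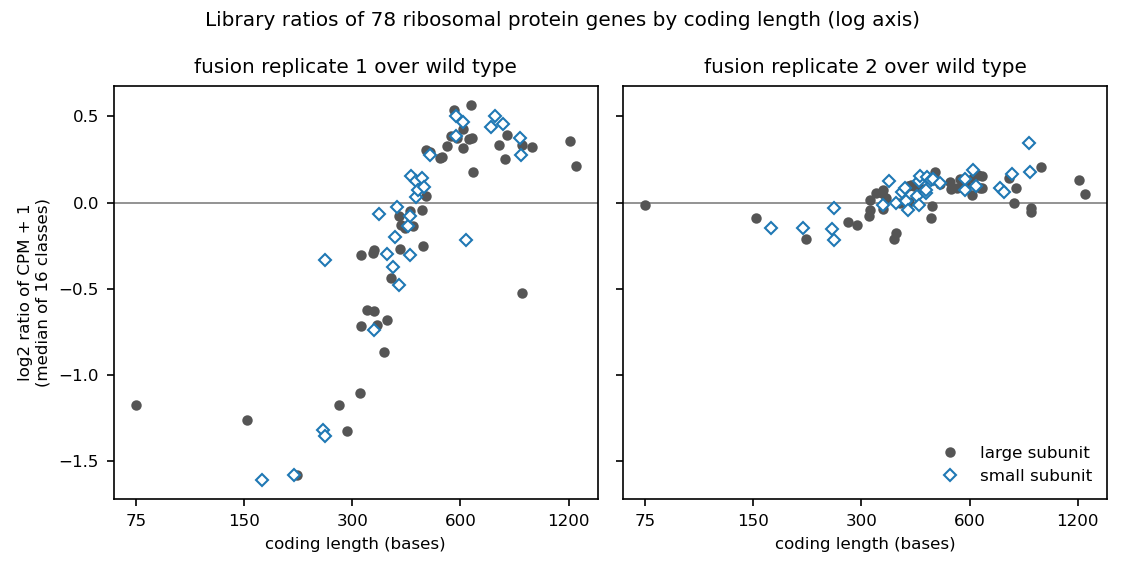
Log2 ratio of CPM + 1 over wild type (y axis, median of 16 classes) against coding length in bases (log x axis) for 78 RP genes, with fusion replicate 1 on the left and fusion replicate 2 on the right. In fusion replicate 1 the ratios span -1.61 to 0.57 and climb with length, and in fusion replicate 2 they span -0.22 to 0.34.

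Split at a coding length of 480 bases, a value chosen after the data were seen, the 33 longer members were higher in both fusion libraries than in wild type in 16 of 17 groups. In erythroid progenitors they held 14.3% and 12.9% of UMIs in fusion and 12.02% in wild type, in monocytes 9.88% and 8.78% in fusion and 7.26% in wild type, and in stem, multipotent and lymphoid progenitors 13.7% and 12.3% in fusion and 11.01% in wild type. The exception was mature neutrophils, with 2.10% and 1.33% in fusion and 1.40% in wild type. The 48 shorter members were below wild type in all 17 groups in fusion replicate 1 and in 8 of 17 in fusion replicate 2, for example 13.9% and 18.9% in erythroid progenitors of fusion and 19.0% in those of wild type. All 17 groups come from the 3 libraries, so the groups are not separate evidence.

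**Figure D5:**
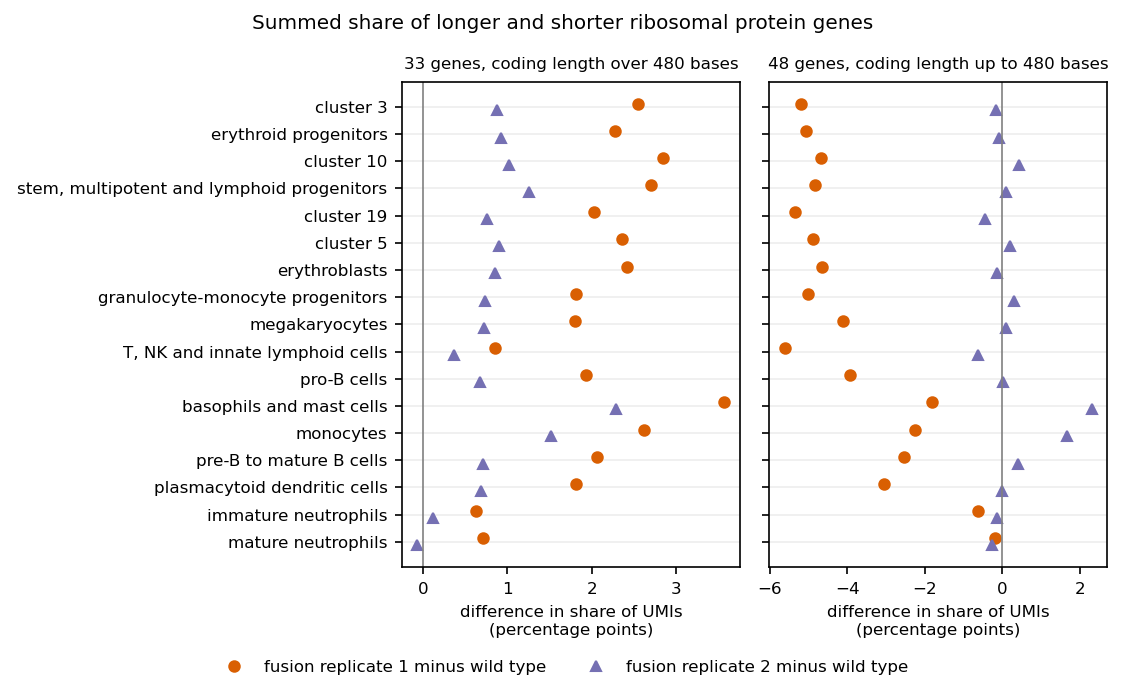
Difference in the summed share of UMIs from wild type (percentage points, x axis) for fusion replicate 1 and fusion replicate 2 in 17 cell groups (rows), for the 33 RP genes with over 480 coding bases (left) and the 48 others (right). The longer genes lie right of 0 for both libraries in 16 of 17 rows, and the shorter ones lie left of 0 in fusion replicate 1 in every row.

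Single RP genes were tested in the 16 groups with at least 50 cells in every library, and none passed. Of 1251 member and class pairs, edgeR's quasi-likelihood test with Benjamini-Hochberg adjustment over all genes of the class called 0, while it called 1.68% of all 157758 gene and class pairs. At an unadjusted p under 0.05 there were 88 member pairs (7.03%), against 9.84% of all pairs, and DESeq2 called 0 member pairs. The smallest adjusted p in edgeR was 0.0793. CPM given with the tests are scaled by TMM factors. Median log2 fold changes of the 78 or 79 members tested ran from -0.16 in T, NK and innate lymphoid cells to 0.20 in basophils and mast cells, against medians of all genes of 0.00 and 0.01. Only the gap between the fusion libraries informs the error of each fit (1 residual degree of freedom), and wild type is assumed to vary like them. The median SE of members differed from that of all genes in either direction. It was 0.24 against 0.16 in erythroid progenitors and 0.18 against 0.22 in immature neutrophils. The lack of calls therefore does not show that members changed less than other genes. The share of all genes called ranged over the classes from 0% in cluster 3, 0.0524% in cluster 5, 0.135% in cluster 19, 0.199% in granulocyte-monocyte progenitors, 0.715% in pro-B cells, 0.821% in cluster 10 and 0.999% in T, NK and innate lymphoid cells through 1.1% in pre-B to mature B cells, 1.4% in megakaryocytes, 1.6% in stem, multipotent and lymphoid progenitors, 1.64% in erythroblasts and 1.66% in erythroid progenitors to 2.47% in monocytes, 3.16% in basophils and mast cells, 5.11% in immature neutrophils and 5.99% in mature neutrophils, with 0 members called in each.

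Rps2 was the member nearest to a call. In basophils and mast cells it had 2770 and 2956 CPM in fusion and 1660 CPM in wild type (log2 fold change 0.79 ± 0.21, SE; edgeR adjusted p = 0.0793). It was above wild type there within both clusters, with 2086 and 2127 CPM before TMM scaling in fusion against 1358 in wild type in cluster 14, and 3511 and 3444 in fusion against 1882 in wild type in cluster 22. Monocytes had 2980 and 3266 CPM of Rps2 in fusion and 2041 in wild type; progenitors of the stem, multipotent and lymphoid class had 4321 and 4537 CPM in fusion and 3243 in wild type, and erythroid progenitors had 6344 and 6550 CPM in fusion and 5274 in wild type. Both fusion libraries were above wild type for Rps2 in 15 of 16 groups, with a median log2 fold change of 0.31, and T, NK and innate lymphoid cells were the exception, with 2488 and 3016 CPM in fusion and 2656 in wild type. With plain library sizes in place of TMM, Rps2 in basophils and mast cells was called (edgeR adjusted p = 0.0438). Rps2 overlaps Snhg9 on the other strand and has 11 named pseudogenes, so part of its UMIs may belong to these.

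Rpl10a and Rpl10 followed Rps2 among the positive fold changes with both fusion libraries above wild type. Rpl10a, of the large subunit arm beside the tRNA exit site, had 2697 and 2482 CPM in basophils and mast cells of fusion and 1648 in those of wild type (log2 fold change 0.65 ± 0.21, SE; edgeR adjusted p = 0.143), and it overlaps another counted gene on the other strand. Rpl10 had 569 and 422 CPM in immature neutrophils of fusion and 322 in those of wild type (log2 fold change 0.62 ± 0.20, SE; edgeR adjusted p = 0.0835); this class includes cluster 8, with 573 and 461 fusion cells and no wild-type cell. Neither was called. Rpl8, of the peptide bond centre, was above wild type in both fusion libraries in all 16 groups, with a median log2 fold change of 0.19 and no call.

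On the negative side the largest values belonged to rare or short genes. Rps28 had 240 and 483 CPM in mature neutrophils of fusion and 698 in those of wild type (log2 fold change -0.95 ± 0.33, SE; edgeR adjusted p = 0.163); it overlaps Kank3 on the other strand. Rpl3l had 5.49 and 8.77 CPM in mature neutrophils of fusion and 15.6 in those of wild type (log2 fold change -1.15 ± 0.34, SE; edgeR adjusted p = 0.0910); as for Rps28, the mature neutrophils compared lie in different clusters in the 2 genotypes. Rpl39l in erythroid progenitors had 0 and 0.59 CPM in fusion and 0.95 in wild type (log2 fold change -1.72 ± 1.05, SE; edgeR adjusted p = 0.716). Rps27, Rps29 and Rpl38 were below wild type in both fusion libraries in all 16 groups, with median log2 fold changes of -0.71, -0.72 and -0.77. For Rps29 in erythroid progenitors the values were 2531 and 7475 CPM in fusion and 8319 in wild type, so most of the difference came from fusion replicate 1. Other settings gave calls, most of them lower in fusion. Without the filter on low counts edgeR called 39 of 1270 member pairs, 2 higher and 37 lower in fusion (2.03% of all pairs were called). They were of Rpl10, Rpl31, Rpl35, Rpl36, Rpl37, Rpl37a, Rpl38, Rpl39, Rpl3l, Rps2, Rps21, Rps27, Rps28 and Rps29. With coarser clusters edgeR called 14 of 1018 member pairs (2.76% of all pairs) and with RP genes in the clustering 13 of 940 (2.32%). Cells assigned by markers gave 10 of 1174 (1.88%), finer clusters 4 of 862 (2.91%) and doublets kept 2 of 941 (2.07%). Equal cells per library gave 1 of 1251 (1.42%) and plain library sizes 1 of 1251 (1.76%). The settings that grouped the cells anew tested no numbered clusters, and 11 to 15 classes in place of 16.

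Genes that make or regulate ribosomes were tested in the same fits, in which 1.68% of all pairs were called. Ribosome biogenesis genes had 1 pair higher and 1 lower in fusion of 631 tested (edgeR, adjusted p under 0.05). Gar1, of the box H/ACA particles that modify rRNA, rose in monocytes to 64.0 and 64.8 CPM in fusion, against 37.4 in wild type (log2 fold change 0.78 ± 0.22, SE; edgeR adjusted p = 0.0368). Utp4, of the small subunit processome, fell in immature neutrophils to 2.71 and 2.34 CPM in fusion, against 6.79 in wild type (log2 fold change -1.42 ± 0.37, SE; edgeR adjusted p = 0.0331), a class whose cluster 8 held fusion cells only. Of the regulators, 0 of 214 pairs were called higher and 2 lower, both of Myc, the transcription factor that drives ribosome production. The class of T, NK and innate lymphoid cells joins several cell types and held 114 and 93 cells in fusion and 254 in wild type. There Myc fell to 20.9 and 23.8 CPM in fusion, against 67.8 in wild type (log2 fold change -1.59 ± 0.34, SE). In megakaryocytes it fell to 63.9 and 56.8 CPM in fusion, against 103.7 in wild type (-0.79 ± 0.20, SE; edgeR adjusted p = 0.0189). Mitochondrial ribosomal protein genes had 1 pair higher and 1 lower of 1244. Mrpl10 rose in mature neutrophils to 44.6 and 40.5 CPM in fusion, against 19.03 in wild type. Mrpl52 fell in erythroblasts to 168 and 328 CPM in fusion, against 410.1 in wild type. Most of the Mrpl52 difference came from fusion replicate 1.

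The p53 targets, of interest because unassembled ribosomal proteins are known to stabilise p53, had 2 pairs higher and 2 lower of 120 (edgeR, adjusted p from 0.00183 to 0.0233), and 3 of the 4 fell in immature neutrophils, where 5.11% of all genes were called and where cluster 8 held no wild-type cell. In immature neutrophils Trp53inp1 rose to 55.6 and 45.1 CPM in fusion, against 25.01 in wild type, and Sesn2 to 9.29 and 9.11 CPM, against 3.04 in wild type. In the same class Cdkn1a, the cell cycle inhibitor p21, fell to 1.67 and 1.64 CPM in fusion, against 7.68 in wild type. Trp53inp1 fell in stem, multipotent and lymphoid progenitors to 22.2 and 15.2 CPM in fusion, against 42.5 in wild type. The genes of the Diamond-Blackfan list (304 pairs), the stalk (48), the 5S partners (32) and the paralogs (51) had 0 calls in edgeR; their members are among the pairs counted above. Of 208 pairs of mitochondrial transcripts, 0 were called higher and 4 lower, each of them mt-Nd4l in a different group. In pro-B cells it had 94.1 and 137 CPM in fusion and 249 in wild type. Erythroblasts had 90.4 and 143 CPM in fusion and 214 in wild type. In all 4 groups fusion replicate 1 lay below fusion replicate 2, which lay below wild type. Whether the low short transcripts of fusion replicate 1 bear on these calls was not tested. The haemoglobin genes had 2 pairs higher and 1 lower of 54, and both higher ones rest on fusion replicate 2: Hbb-bt in megakaryocytes had 2.30 and 99.3 CPM in fusion and 2.16 in wild type.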

How the data were processed

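The authors deposited 1 matrix of UMI counts per library, for which the submitters' processing notes name Cell Ranger 5.0.1 (5.0.0 per the file headers), bcl2fastq 2.20.0.422 and GRCm38. Counts had not been normalized; the annotation release and the use of strand are not given in the sources used here.

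Barcodes needed 1000 UMIs, 400 genes and a mitochondrial share of 10% or less; 225 and 318 doublets in the fusion libraries and 194 in wild type, called with Scrublet in scanpy 1.11.5, were removed. Cells were clustered without RP genes (2000 variable genes, 30 principal components, Leiden resolution 1). Counts were summed per class and library. Classes with at least 50 cells in every library were tested with edgeR 4.0.16 (TMM, quasi-likelihood, Benjamini-Hochberg over all genes of a class, threshold 0.05), after a test on simulated data; DESeq2 1.42.0 was an alternative. The labels do not say whether replicates are separate animals. Intervals and limits from counts cover counting error only.

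Genes named were the 8 members with the largest and the 4 with the smallest ratio between classes, the paralogs, and the 3 per direction with the largest fold change and both fusion libraries on 1 side. Rplp1, Rps18, Rpl8, Rpl6 and the short genes were named after their values were seen. The members and gene lists were chosen with earlier results of these data known. Coding and transcript lengths and coding sequences came from GENCODE M21, and promoters from RefSeq. Some results are not reported here.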

Additional observations from a re-analysis of the deposited data

Results flagged for a closer look

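In 4 cell classes every fusion library lay on 1 side of wild type in the summed RP share, and the side was not the same in all of them; the difference between the classes was not tested. The fusion mean minus wild type was 3.17 percentage points in basophils and mast cells and 1.78 in monocytes. It was -2.52 in T, NK and innate lymphoid cells and -0.01 in immature neutrophils. In monocytes the difference was -1.17 when cells were assigned by their markers and -0.11 with doublets kept. In immature neutrophils it ran from -2.49 with coarser clusters to 1.28 with a stricter cell filter.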

How the results depend on the processing

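Both neutrophil classes were lowest in RP share in 12 of 12 alternatives. The highest class exceeded the lowest by 7.54 times on the mean of libraries and by 5.57 times with mitochondrial, haemoglobin and neutrophil granule counts out of the total; leaving out 1 library gave 7.05 to 8.22. The number of members with a class ratio of 2 or more, 12, stayed within 9 to 16. The number of classes with every fusion library above wild type, 2 of 17, was 4 with cells assigned by markers and 16 with the longer members, and 14 without fusion replicate 1 and 3 without fusion replicate 2. The number with every fusion library below, also 2, was 1 with the wider gene set, with cells assigned by markers and with both neutrophil classes joined, 0 with the longer members, 14 without fusion replicate 2 and 3 without fusion replicate 1. The median difference over classes, -0.65 percentage points, was 0.81 without fusion replicate 1, -2.14 without fusion replicate 2 and 1.39 with the longer members. Of 166 single differences under alternatives, 144 moved by less than the fusion SD and 22 by more. The count of member pairs called, 0 of 1251, was 39 of 1270 with no gene filter and 14 of 1018 with Leiden resolution 0.5. It was 13 of 940 with RP genes in the clustering and 10 of 1174 with cells assigned by markers. Leiden resolution 2 gave 4 of 862, doublets kept 2 of 941, equal cells 1 of 1251 and plain library sizes 1 of 1251. The count was 0 with the DESeq2 size factors, TMM from other genes, DESeq2, library sizes set to the RP total and neutrophils joined. The cause of these changes was not tested. The long and short split, the RP library sizes and the joined neutrophils were added after the data were seen. No paired analysis was possible because wild type has 1 library. Plasmacytoid dendritic cells, with 29 cells in a fusion library, were not tested.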
